A study of Mus musculus with 8 samples.

Results

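Dentin is built on a collagen scaffold that carries acidic phosphoproteins, small calcium-binding proteins and matricellular proteins, and 8 genes encoding such proteins are described here as members of one group, named by symbol: *Dspp*, *Dmp1*, *Ibsp*, *Mepe*, *Spp1*, *Bglap*, *Bglap2* and *Sparc*. Their rows were found through the Ensembl identifiers, and 6 of the 8 were among the 12148 genes of the deposited table. *Mepe* and *Spp1* were not analysed here. RNA was sequenced from dental pulp of first molars of C57BL/6J mice at postnatal day 7 (P7), with 4 libraries of each genotype, Osterix-Cre (the controls) and Tgfbr2cko. Both genotypes carry a transgene in which the Osterix promoter drives Cre recombinase in odontoblasts and other dental mesenchyme. The Tgfbr2cko mice (Osterix-Cre:Tgfbr2f/f) carry in addition *Tgfbr2*, the type II TGF-β receptor gene, flanked by loxP sites, and lose it in the cells that made Cre, while other cells of the pulp keep it. Left and right molars were combined after the pulp had been freed from hard tissue and from the enamel organ. The comparison asks which genes of the dentin matrix differ in pulp when the mesenchyme lacks the receptor. Each library keeps its label number, 49 to 52 in Osterix-Cre and 53 to 56 in Tgfbr2cko.

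Odontoblasts are the mesenchymal cells at the pulp border that secrete dentin. *Dspp*, *Dmp1* and *Ibsp* belong to the small integrin-binding ligand N-linked glycoprotein family, whose secreted proteins are rich in phosphorylated serines and acidic residues, bind calcium and cell-surface integrins, and take part in mineral growth on collagen. Osteocalcin, the product of *Bglap* and *Bglap2*, carries carboxylated glutamates that bind the mineral surface and is made by osteoblasts and odontoblasts. *Sparc* encodes osteonectin, a matricellular protein that binds both collagen and calcium and is made by many mesenchymal cells. In bulk tissue, fewer cells of a type and less RNA per cell cannot be told apart.

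The deposited values are log2 CPM, read counts scaled to a common library size, and between 8682872 and 13539670 reads per library lay behind them, so that 1 read was worth 0.0739 to 0.115 CPM. The members had between 219 and 299595 reads in a library. The deleted gene itself did not separate the genotypes. Its count covers the whole gene and all cells of the pulp, so it is no direct measure of the deletion. *Tgfbr2* had log2 values of 7.16, 7.62, 7.64 and 7.52 in Osterix-Cre and 7.02, 7.00, 7.16 and 7.61 in Tgfbr2cko, a log2 change of -0.29 with a limma-trend p of 0.119. The libraries labelled Tgfbr2cko 55 and 56 lay within the control range, 55 level with its lowest library. Library 56 also held the most enamel transcripts: *Amelx* and *Ambn* together took 18.5% of its reads, against 0.326% to 2.74% in the other libraries. Where leaving out library 56 ended a call, the value without it is given.

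Across the 6 genes, 2 passed the study's thresholds, 1.5-fold or more at an unadjusted p under 0.05, against 5.77% of all 12148 genes. *Ibsp* was higher and *Bglap* was lower in the Tgfbr2cko libraries, where 2.12% of all genes were called higher and 3.65% lower. *Dspp*, *Dmp1*, *Bglap2* and *Sparc* did not pass. No member had an adjusted p under 0.05 by limma-trend with Benjamini-Hochberg adjustment over all genes, a level that 0.947% of all genes reached, and 2 members had an unadjusted p under 0.05, against 8.38% of all genes. The log2 change was negative for 5 members and positive for 1, with a median of -0.28, beside a median of -0.01 over all genes. No member had values that separated the genotypes completely, which 5.27% of all genes did.

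**Figure D1:**
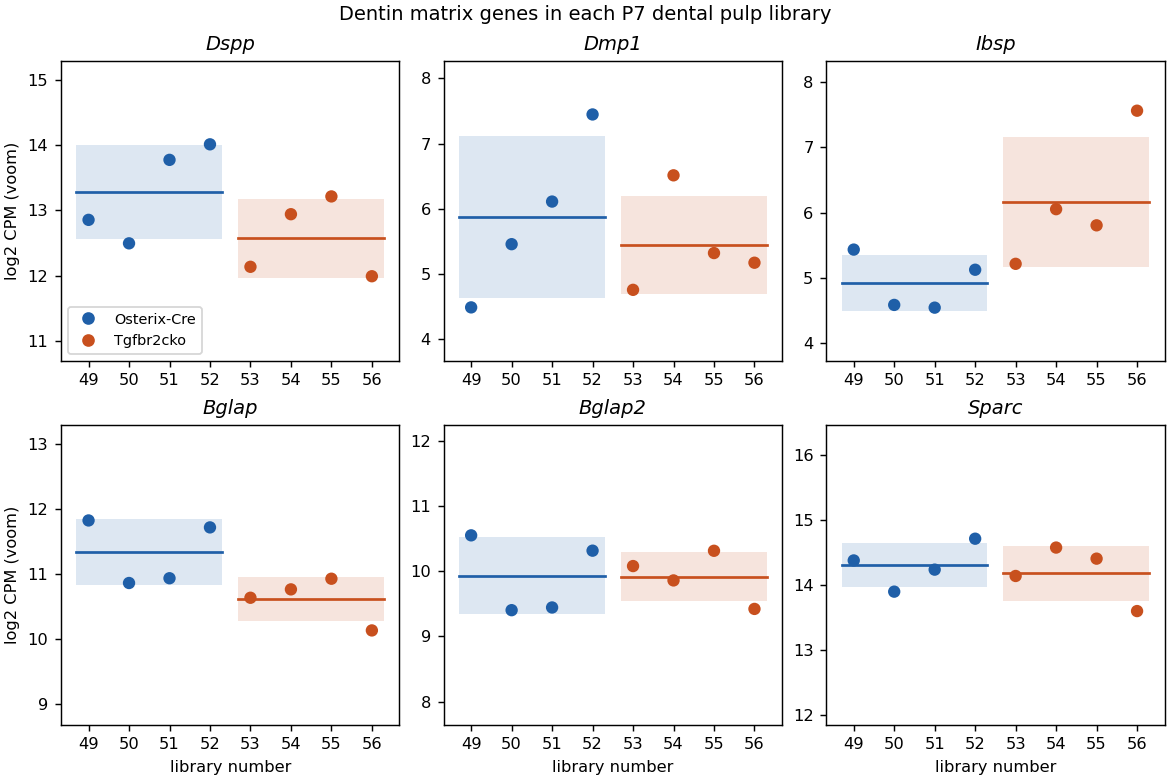
Log2 CPM (vertical axes, all spanning ranges of the same size) of the 6 analysed dentin matrix genes in each library, named by number on the horizontal axes; blue points are Osterix-Cre and orange points Tgfbr2cko. Lines are group means and bands 1 SD (n = 4); *Ibsp* reached 7.56 in library 56, while *Bglap* lay between 10.14 and 10.93 in Tgfbr2cko.

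*Dspp* (ENSMUSG00000053268.7, chromosome 5, 104170712-104180127, plus strand, GRCm38) encodes dentin sialophosphoprotein, the precursor of the most abundant non-collagenous proteins of dentin. Much of its coding sequence is a repeat of serine and aspartate codons, and a stretch of 150 bases of the coding sequence of 2835 bases, from position 1918 to 2067 counted from the start codon, is shown because this repeat is the part that sets the phosphoprotein apart from the other members. The capitals mark the unit of 9 bases that recurs 8 times in the stretch and 36 times in the whole coding sequence.
Dspp repeat: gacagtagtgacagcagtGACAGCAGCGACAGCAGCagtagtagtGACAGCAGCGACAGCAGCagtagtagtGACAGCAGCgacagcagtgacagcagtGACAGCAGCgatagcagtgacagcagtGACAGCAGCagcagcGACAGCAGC
Codons AGC and AGT, both for serine, made up 33.3% of the 945 codons, and GAC and GAT, both for aspartate, made up 18.8%. Despite the repeat, 2.51% of the 50-base windows of the transcript occurred in it more than once, and 0 of the 75-base windows did.

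*Dspp* had log2 values of 12.86, 12.50, 13.78 and 14.02 in the Osterix-Cre libraries 49 to 52. In the Tgfbr2cko libraries 53 to 56 the values were 12.13, 12.94, 13.22 and 11.99. The 2 highest values were both in controls and the 2 lowest both in Tgfbr2cko, but libraries 54 and 55 lay above controls 49 and 50, so the genotypes overlapped. The means were 13.29 ± 0.73 (SD, n = 4) and 12.57 ± 0.60 (SD, n = 4). The log2 change was -0.71 (standard error 0.43), with a 95% interval from -1.65 to 0.22, a p of 0.122 by limma-trend (adjusted 0.794). The exact permutation test over the 70 arrangements gave p = 0.171, where 0.0286 is the smallest p it can give. As a fold, the interval ran from 0.319 to 1.16, which allows a marked reduction as well as no difference. Leaving out 1 library gave log2 changes from -0.98 without control 50 to -0.47 without control 52.

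*Dmp1* (ENSMUSG00000029307.7) starts 22485 bases beyond *Dspp* on the same strand (chromosome 5, 104202613-104214102). It encodes dentin matrix protein 1, an acidic phosphoprotein of odontoblasts and osteocytes that regulates mineralization and phosphate balance. The controls had log2 values of 4.48, 5.45, 6.11 and 7.45, a 7.79-fold span within 1 genotype. The Tgfbr2cko libraries had 4.75, 6.51, 5.32 and 5.17, all inside the control range. The log2 change was -0.44 (standard error 0.51), with a 95% interval from -1.54 to 0.67 and a limma-trend p of 0.409, adjusted 0.974. Without control 52, the highest library, the change was 0.09, so even its sign rested on that library. The log2 ratio of *Dspp* over *Dmp1* ran from 6.57 to 8.37 in the controls and from 6.43 to 7.90 in Tgfbr2cko. It differed by -0.28 (exact permutation p = 0.6), and the ratio over *Dmp1* separated the genotypes for 0.189% of the other 12147 genes.

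*Ibsp* (ENSMUSG00000029306.8, chromosome 5, 104299171-104311469, plus strand) lies 85068 bases beyond *Dmp1* and encodes bone sialoprotein, which binds collagen and integrins and can seed mineral crystals. It is best known from osteoblasts and cementoblasts. *Ibsp* was the one member called higher in Tgfbr2cko. The controls had log2 values of 5.43, 4.58, 4.54 and 5.12. The Tgfbr2cko libraries had 5.21, 6.05, 5.81 and 7.56. Libraries 54, 55 and 56 lay above every control, and library 53 lay between controls 52 and 49. The means were 4.92 ± 0.43 (SD, n = 4) and 6.16 ± 1.00 (SD, n = 4), and the highest Tgfbr2cko library had 5.10 times the level of the lowest. The change was 2.36-fold (log2 1.24, standard error 0.39, 95% interval 0.39 to 2.09), with a p of 0.00748 by limma-trend (adjusted 0.230). The exact permutation test gave p = 0.0571. Without the library labelled Tgfbr2cko 56, the log2 change was 0.77 with a limma-trend p of 0.00856.

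The library with the highest *Ibsp* value was also the one with the most enamel transcripts. The summed level of 9 markers of the enamel organ epithelium, all of them in the table, ran from 3718 to 22878 CPM in the controls and from 3904 to 194749 CPM in Tgfbr2cko. Of the 9 markers, none was called higher and 1 was called lower, *Klk4*, which encodes a protease of maturing enamel. Its log2 values were 7.26 to 7.78 in the controls and 4.20 to 5.39 in Tgfbr2cko, a change of -2.71 without overlap (limma-trend adjusted p = 0.000136). Across the genotypes *Klk4* did not follow *Amelx*. Library 56, with 90427 CPM of *Amelx*, had 42.0 CPM of *Klk4*, and the controls had 154 to 220 CPM. Which cells account for the *Klk4* difference was not tested. In each library the enamel genes and *Ibsp* share 1 read total. Over the 8 libraries, the *Ibsp* value had a Pearson r of 0.81 with the mean of *Amelx*, *Ambn* and *Enam*, and 0.82 within genotypes. These values rested on library 56: without it they were 0.42 and 0.48. Library 54, with the second-highest *Ibsp* value, had a marker sum of only 3904 CPM. With the mean of the 3 enamel genes added to the model as a covariate, the *Ibsp* log2 change was 0.79 with a limma-trend p of 0.0127. Leaving out library 56 alone gave nearly the same change, 0.77. This fit therefore cannot tell an adjustment for epithelium from the weight of that 1 library.

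Of 5 bone cell markers, 3 were in the table and 2 of them were called. *Ifitm5*, an osteoblast membrane protein gene, had log2 values of 3.81 to 4.56 in the controls and 4.49 to 5.48 in Tgfbr2cko, a change of 0.66 at a limma-trend p of 0.0154 (adjusted 0.333). The highest value was that of library 56, and without it the change was 0.49, under 1.5-fold, and the call was also lost without control 50 (0.50). *Dkk1*, a secreted Wnt inhibitor made by osteocytes among other cells, had 3.93 to 5.30 and 5.35 to 6.70, a change of 1.23 at a limma-trend p of 0.00222 (adjusted 0.118). Both were called higher, and the genotypes overlapped for *Ifitm5* but not for *Dkk1*. *Sost*, which defines osteocytes, was not analysed here. The 5 odontoblast markers other than the members summed to 1743 to 2724 CPM in the controls and 1398 to 2478 CPM in Tgfbr2cko. Of these, 1 was called higher (*Col24a1*, log2 change 0.92, limma-trend p of 0.00141) and 1 lower (*Nes*, -0.81, limma-trend p of 0.00777). Neither of these calls was lost when any 1 library was left out. The part of bone or epithelial cells in the *Ibsp* difference was not tested beyond these values. Summed levels of the other cell types overlapped between the genotypes for osteoclasts (3 of 5 markers in the table, 233 to 280 against 226 to 437 CPM), macrophages (598 to 875 against 372 to 768 CPM, 1 of 5 markers called lower), endothelium (181 to 248 against 150 to 207 CPM), and erythroid cells (545 to 1273 against 525 to 2158 CPM). Of the Schwann cell markers, 1 of 4 was in the table, at 6.10 to 10.7 CPM. The macrophage marker called lower, *Cd68*, had a log2 change of -0.70 (limma-trend adjusted p = 0.564), and this call was lost without library 49, 50, 51, 55 or 56 (-0.37 without 56).

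**Figure D2:**
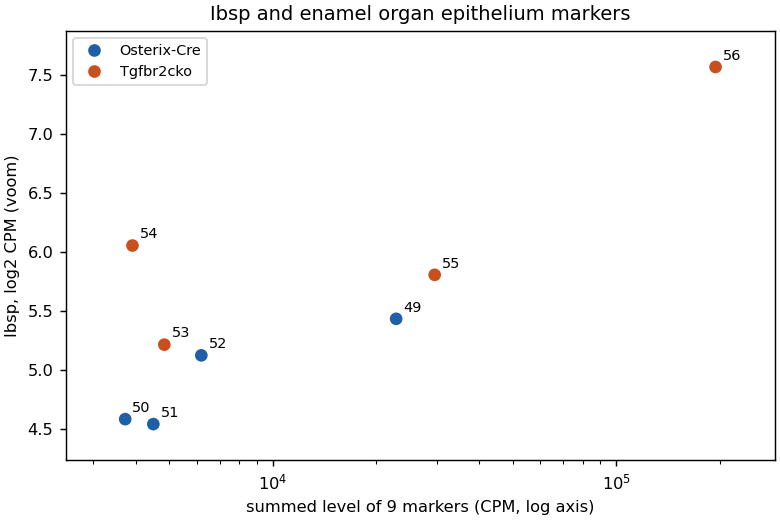
*Ibsp* log2 CPM (vertical axis) against the summed CPM of 9 enamel organ epithelium markers (log axis), 1 point per library with its number, blue for Osterix-Cre and orange for Tgfbr2cko. Library 56 has both the highest *Ibsp* value, 7.56, and the highest enamel sum, 194749 CPM, while library 54, with the second-highest *Ibsp* value, has a sum of 3904 CPM.

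Within this gene cluster of chromosome 5, which spans 140758 bases from the start of *Dspp* to the end of *Ibsp*, *Dspp* held nearly all reads. It took between 98.8% and 99.3% of the summed reads of *Dspp*, *Dmp1* and *Ibsp* in the controls, and between 94.8% and 99.0% in Tgfbr2cko. *Ibsp* took 0.165% to 0.577% in the controls and 0.581% to 4.41% in Tgfbr2cko, a share that also moves with *Dspp*, and its lowest Tgfbr2cko share and its highest control share had overlapping 95% Wilson intervals (0.532% to 0.635% and 0.525% to 0.634%, counting error only). The summed log2 level of the 3 genes differed by -0.69 (exact permutation p = 0.2), and without *Dspp* the sum differed by 0.34 (exact permutation p = 0.514). *Sparcl1*, a relative of *Sparc* and the nearest analysed gene on the *Dspp* side, had a log2 change of 0.04.

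*Bglap* (ENSMUSG00000074483.2, chromosome 3, 88383501-88384464, minus strand) and *Bglap2* (ENSMUSG00000074486.2, chromosome 3, 88377736-88378699, minus strand) are tandem copies with 4801 bases between them. Both encode osteocalcin, the vitamin K-dependent protein of bone and dentin. Their coding sequences, each of 285 bases in 4 coding exons (chromosome 3, 88383638-88384415 and 88377873-88378650, GRCm38), are shown side by side because the comparison of the copies rests on how few bases tell them apart. Capitals mark the 4 bases that differ.
Bglap coding sequence: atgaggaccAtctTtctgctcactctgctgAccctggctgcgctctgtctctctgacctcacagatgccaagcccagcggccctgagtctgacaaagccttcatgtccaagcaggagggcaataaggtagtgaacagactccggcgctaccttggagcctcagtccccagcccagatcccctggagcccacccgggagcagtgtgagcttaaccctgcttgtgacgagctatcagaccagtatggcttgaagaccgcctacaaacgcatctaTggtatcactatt
Bglap2 coding sequence: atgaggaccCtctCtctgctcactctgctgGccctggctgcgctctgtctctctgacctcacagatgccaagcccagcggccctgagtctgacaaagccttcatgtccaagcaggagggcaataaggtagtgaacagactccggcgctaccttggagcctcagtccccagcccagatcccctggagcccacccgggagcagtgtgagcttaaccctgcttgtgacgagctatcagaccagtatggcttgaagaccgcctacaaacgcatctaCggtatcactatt
The sequences were 98.6% identical, and the longest run without a difference was 241 bases. Over the whole transcripts, 74.7% of the 50-base windows of *Bglap* and 69.2% of those of *Bglap2* also occurred in the other copy, and 56.3% and 51.6% of the 100-base windows did. With *Bglap3*, another gene of the family, counted as well, 88.2% of the 50-base windows of *Bglap2* occurred in another copy, while for *Bglap* the share stayed at 74.7%. How reads that match both copies were counted, and how long the reads were, is not given in the sources used here, so the split between the copies and their levels per length are uncertain.

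*Bglap* was lower in Tgfbr2cko and *Bglap2* was not called. The log2 values of *Bglap* were 11.82, 10.86, 10.94 and 11.72 in the controls. They were 10.64, 10.77, 10.93 and 10.14 in Tgfbr2cko. Controls 49 and 52 stood well above all other libraries, and Tgfbr2cko 55 lay between controls 50 and 51, the overlap of the genotypes. The means were 11.34 ± 0.51 (SD, n = 4) and 10.62 ± 0.34 (SD, n = 4), a 1.65-fold lower level (log2 -0.72, standard error 0.28, 95% interval -1.32 to -0.12). Limma-trend gave p = 0.0226 and an adjusted p of 0.408, and the exact permutation test gave p = 0.0571. The call was lost when library 49, 52 or 56 was left out, with log2 changes of -0.56, -0.59 and -0.56 and limma-trend p of 0.0741, 0.0702 and 0.0516. With limma's library weights, under which library 56 counted least, the change was -0.45 and the limma p was 0.0785.

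*Bglap2* had log2 values of 10.55, 9.40, 9.44 and 10.32 in the controls and 10.08, 9.86, 10.31 and 9.42 in Tgfbr2cko. Controls 49 and 52 were again high and controls 50 and 51 low, and the 4 Tgfbr2cko values lay inside the control range. The log2 change was -0.01 (standard error 0.28), with a 95% interval from -0.62 to 0.60, which allows 1.5-fold changes in either direction, and the limma-trend p was 0.973.

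The share of *Bglap* among the reads of both copies separated the genotypes. *Bglap* took 70.7%, 73.4%, 73.8% and 72.5% of the osteocalcin reads in the controls. It took 59.5%, 65.2%, 60.5% and 62.1% in Tgfbr2cko. Every control lay above every Tgfbr2cko library, by more than the counting error: the lowest control had a 95% Wilson interval from 70.3% to 71.1% and the highest Tgfbr2cko library from 64.7% to 65.7%. The mean shares were 72.6 ± 1.35% (SD, n = 4) and 61.8 ± 2.49% (SD, n = 4), a difference of -10.8 percentage points.

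**Figure D3:**
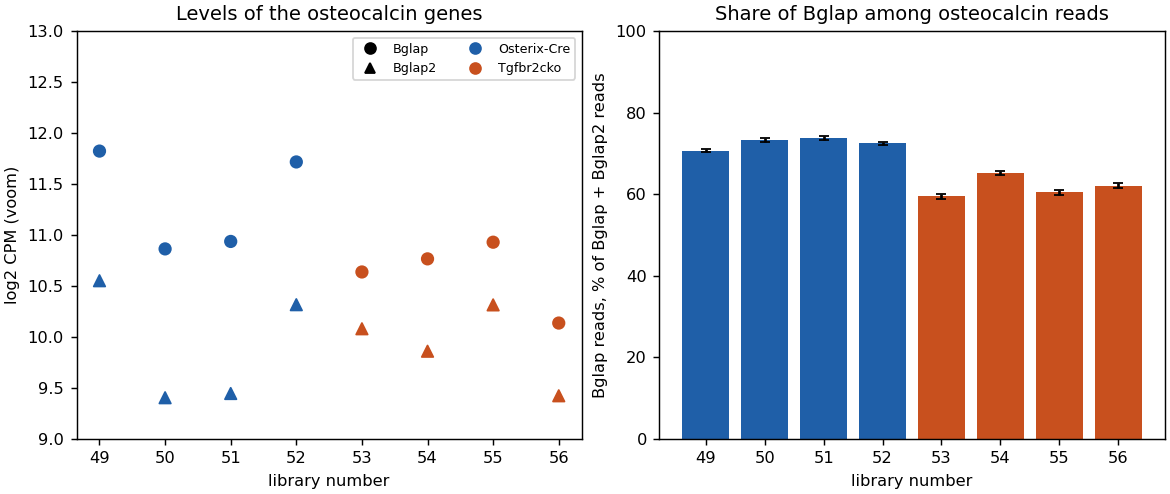
Left, log2 CPM of *Bglap* (circles) and *Bglap2* (triangles) in each library; right, *Bglap* reads as a percentage of the reads of both genes, with 95% Wilson intervals, blue for Osterix-Cre and orange for Tgfbr2cko. The bars are 70.7% to 73.8% in the controls and 59.5% to 65.2% in Tgfbr2cko.

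As a log2 ratio of *Bglap* over *Bglap2*, the controls had 1.27, 1.46, 1.49 and 1.40 and Tgfbr2cko 0.56, 0.91, 0.62 and 0.71. The ratio was thus about 2.65 in the controls and 1.62 in Tgfbr2cko, a log2 difference of -0.71. The exact permutation test gave p = 0.0286, the smallest it can give, and 0.0714 when adjusted over the 5 ratios tested. Libraries 49 and 50, 53 and 56, and 54 and 55 share a number in their titles, which the sources used here do not explain. With each such pair averaged, the difference was -0.72 with an exact permutation p of 0.1, the smallest that 3 against 2 allows. Leaving out any 1 library kept the difference between -0.78 and -0.66. The log2 ratio over *Bglap2* did not overlap between genotypes for 1.18% of the other 12147 genes. The copies otherwise moved together: across the 8 libraries their log2 values had a Pearson r of 0.71, and 0.97 once each genotype was centred on its mean, from reads that the counting may have shared between them. The summed osteocalcin level, which does not depend on how reads given to 1 copy or the other were split but would depend on shared reads that were dropped or counted for both, had log2 values of 12.32, 11.31, 11.38 and 12.18 in the controls and 11.38, 11.38, 11.65 and 10.82 in Tgfbr2cko. These overlapped, with a difference of -0.49 (exact permutation p = 0.286), which was -0.31 without control 49 and -0.32 without library 56.

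Of the genes within 100000 bases of the osteocalcin copies, only *Bglap* was called with all libraries in the fit. *Sema4a*, a semaphorin gene, had a log2 change of -0.58 with a limma-trend p of 0.0109 (adjusted 0.276), just under 1.5-fold, and was called without library 52, 53 or 56 (-0.68, -0.73 and -0.59). *Tmem79*, which encodes a membrane protein, had 0.90 at a limma-trend p of 0.0548, and *Pmf1*, the nearest analysed neighbour of *Bglap*, had -0.16.

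The promoters of the called members are given as the 250 bases before the start site (RefSeq, GRCm38.p6), because *Bglap* and *Ibsp* were called in opposite directions. Of the 6 genes, 4 had a promoter entry, *Dspp* and *Bglap2* not among them. The *Bglap* promoter (chr3:88384467-88384716, minus strand) has in capitals ACCACA, the core that RUNX factors bind, TTACATCA, an element named OSE1 from the osteocalcin promoter, and a TATA box, TATAAA.
Bglap promoter: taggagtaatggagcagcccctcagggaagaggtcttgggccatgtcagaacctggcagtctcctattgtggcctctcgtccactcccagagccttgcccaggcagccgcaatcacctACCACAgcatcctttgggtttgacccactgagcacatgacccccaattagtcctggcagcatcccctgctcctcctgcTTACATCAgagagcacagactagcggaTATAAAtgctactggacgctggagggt
The *Ibsp* promoter (chr5:104299037-104299286, plus strand) has in capitals TTTATA, which is TATAAA on the other strand.
Ibsp promoter: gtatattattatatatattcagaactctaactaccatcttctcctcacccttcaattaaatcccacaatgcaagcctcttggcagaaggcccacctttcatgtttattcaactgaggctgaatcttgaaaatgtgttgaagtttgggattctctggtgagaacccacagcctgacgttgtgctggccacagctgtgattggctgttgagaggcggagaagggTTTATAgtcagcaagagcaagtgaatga
In *Bglap* the 3 matches lie at -132 to -127, -54 to -47 and -27 to -22 from the start site, and the match in *Ibsp* lies at -28 to -23. Each motif was searched on both strands, and the letters of the 3 motifs do not overlap in these windows. ACCACA occurred in 14% of the 32851 promoters in the table, TATAAA in 12.4% and TTACATCA in 0.965%. Of the other members, 1 of the *Dmp1* promoter windows held ACCACA, and the *Sparc* window held none of the 3.

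*Sparc* (ENSMUSG00000018593.13, chromosome 11, 55394500-55423183, minus strand) had log2 values of 14.38, 13.90, 14.24 and 14.71 in the controls and 14.14, 14.57, 14.40 and 13.60 in Tgfbr2cko. Library 56 was the lowest and control 52 the highest, and the other 6 libraries were interleaved. The log2 change was -0.13 (standard error 0.45), with a 95% interval from -1.10 to 0.85 and a limma-trend p of 0.785. Against *Col1a1*, the main collagen of dentin, *Sparc* stood higher in Tgfbr2cko. The log2 ratio of *Sparc* over *Col1a1* was -1.42, -1.35, -1.65 and -1.57 in the controls and -0.57, -0.40, -1.19 and -0.90 in Tgfbr2cko, a difference of 0.73 without overlap (exact permutation p = 0.0286, adjusted over the 5 ratios 0.0714). The mean log2 value of *Col1a1* itself was 15.80 ± 0.42 and 14.94 ± 0.48 (SD, both n = 4), with overlapping values. Its change of -0.86 (standard error 0.60) was not called (limma-trend p of 0.179, adjusted 0.859), while the exact permutation test gave p = 0.0571. Without limma's intensity trend the standard error of *Sparc*, also highly expressed, was 0.24 instead of 0.45 (limma p of 0.615). At such levels the limma-trend p thus also reflects the trend. The ratio over *Col1a1* separated the genotypes for 13.1% of the other genes, so that a separation of this kind was common. Leaving out any 1 of the 4 controls gave an exact permutation p of 0.0571 for the ratio of *Sparc* over *Col1a1*. With libraries averaged where their titles share a number, that ratio differed by 0.77 with an exact permutation p of 0.1. Over the same gene, the ratios of *Dspp* (0.14, exact permutation p = 0.571) and of *Bglap* (0.14, exact permutation p = 0.6) differed little, with overlapping values.

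Levels of different genes were compared as CPM per kb of the longest coding transcript. In the controls the median level was 8818 CPM per kb for *Sparc*, 6053 for *Bglap*, 2420 for *Dspp*, 2092 for *Bglap2*, 20.4 for *Dmp1* and 14.2 for *Ibsp*. In Tgfbr2cko the medians were 8634, 3788, 1396, 2134, 13.7 and 29.6 CPM per kb in the same order. *Sparc* was first and *Bglap* second in all 8 libraries. *Dspp* stood above *Bglap2* in controls 51 and 52 and below it in the other 6 libraries, so the controls gave no fixed order for this pair. *Dmp1* and *Ibsp* lay far below these 4 genes, and *Ibsp* stood above *Dmp1* in control 49 and in Tgfbr2cko 53, 55 and 56, so this pair kept no fixed order in either genotype. The levels of the osteocalcin copies carry the uncertainty of the shared reads.

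**Figure D4:**
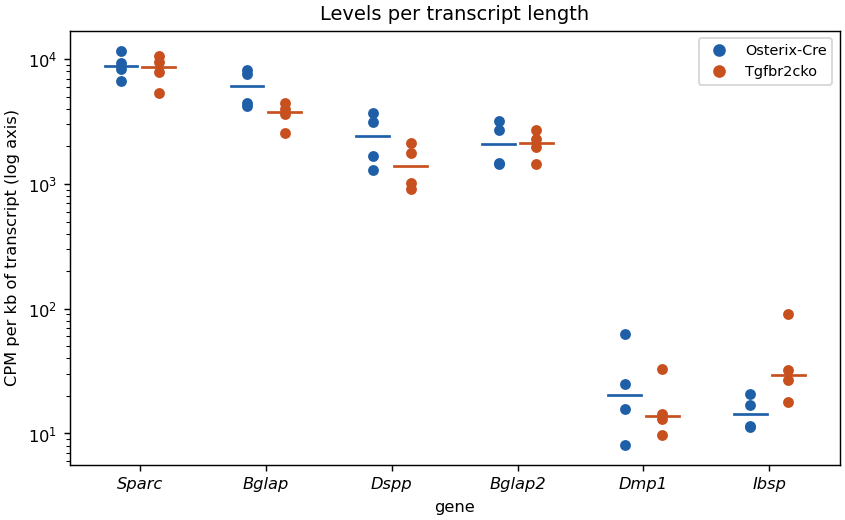
CPM per kb of transcript (log axis) for each gene, 1 point per library, blue for Osterix-Cre and orange for Tgfbr2cko, with horizontal lines at the group medians. *Sparc*, *Bglap*, *Dspp* and *Bglap2* lie between 918 and 11656 CPM per kb, and *Dmp1* and *Ibsp* between 8.08 and 91.5 CPM per kb.

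Of the genes that act on these proteins or beside them, 53 of the 58 listed were in the table. The same thresholds called 2 of them higher and 3 lower, beside 2.12% and 3.65% of all genes, and for 1 the adjusted p was under 0.05 (limma-trend). The median log2 change of the 53 genes was 0.04. Of the enzymes that modify or cleave the matrix proteins, 10 of 11 were in the table and none was called. *Fam20c*, the kinase that phosphorylates the serines of this family, had a log2 change of 0.48, at a limma-trend p of 0.0447, while *Bmp1*, a protease that cleaves the *Dspp* and *Dmp1* products and procollagen, had -0.54 at a p of 0.0159, both under 1.5-fold. Without library 53 both were called (0.64 and -0.71), and without control 52 *Fam20c* was (0.59). For *Bmp1*, control 49 had 8.48 and the other controls 8.15 to 8.19.

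Of the integrins and other receptors, all 9 were in the table, with 1 called in each direction. *Cd44*, a receptor for hyaluronan and osteopontin, was higher, with log2 values of 6.38 to 6.60 in the controls and 6.66 to 7.86 in Tgfbr2cko and a change of 0.61, at a limma-trend p of 0.0181 (adjusted 0.363). Library 56 had the highest value, and without it the change was 0.35, under 1.5-fold, as it was without control 51 (0.57). *Itga8*, an integrin subunit that binds the Arg-Gly-Asp motif of osteopontin, had 3.44 to 4.63 and 2.52 to 4.24, a change of -0.80, at a limma-trend p of 0.0490 (adjusted 0.589). Library 56 had the lowest value, and the call was lost without it (-0.52, limma-trend p of 0.148) and without library 50, 51, 52 or 55. The genotypes did not overlap for *Cd44* but did for *Itga8*.

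Of the relatives of SPARC and of the Gla proteins, 8 of 11 were in the table and only *Smoc2*, a SPARC-related matricellular protein, was called. Its log2 values were 5.60 to 5.64 in controls 50, 51 and 52, 6.57 in control 49 and 6.43 to 7.09 in Tgfbr2cko, a 1.93-fold higher level at a limma-trend p of 0.000898 (adjusted 0.0713). None of 12 transcription factors of odontoblasts and osteoblasts was called. The smallest limma-trend p were those of *Klf4* (0.0590, log2 change 0.31) and *Nfic* (0.0723, log2 change -0.30), both factors of odontoblast differentiation, while *Runx2* and *Sp7* had 0.20 and 0.05.

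The largest changes among the called genes of these lists were in the list on mineral handling and the collagen scaffold, where 14 of 15 were in the table and 2 were called, both lower. *Enpp1*, which makes the mineralization inhibitor pyrophosphate, had log2 values of 5.27 to 6.68 in the controls and 3.37 to 4.40 in Tgfbr2cko, a 4.18-fold lower level (log2 -2.06, standard error 0.30, limma-trend adjusted p = 0.00444). *Col1a2*, the second chain of type I collagen, had 13.83 to 15.09 and 12.93 to 13.68, a log2 change of -1.22, at a limma-trend p of 0.0139 (adjusted 0.316). Values of the genotypes did not overlap for either gene, in contrast to every member.

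**Figure D5:**
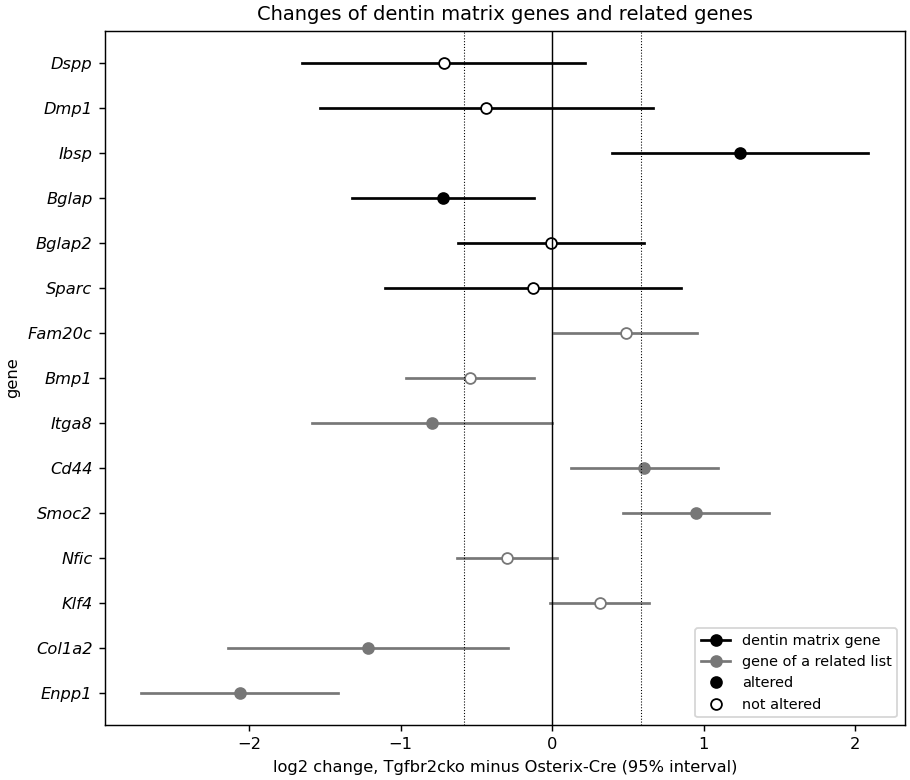
Log2 change (Tgfbr2cko minus Osterix-Cre, horizontal axis) with 95% intervals for the 6 members (black) and for the named genes of the related lists (grey). Filled points passed an unadjusted p under 0.05 and 1.5-fold, with dotted lines at 1.5-fold; *Ibsp* lies at 1.24, *Bglap* at -0.72 and *Enpp1* at -2.06.

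For each member, the genes that varied most like it over the 8 libraries were picked among 10306 genes whose log2 values averaged 3 or more. For *Bglap* these were *Cd40* (Pearson r 0.987), *Homer2* (0.955) and *Ppp2cb* (0.934), and for *Bglap2* they were *Plagl2* (0.957), *Spry4* (0.931) and *Nhs* (0.905). *Ibsp* was nearest to *Itga6* (0.954), a laminin receptor subunit of epithelia and other cells, *Npc2* (0.954) and *Spint2* (0.952). *Dspp* was nearest to *Adamtsl2*, *Hdlbp* and *Btbd19* (0.960 to 0.962), *Dmp1* to *Azi2*, *Fbxo32* and *Gpr180* (0.942 to 0.964), and *Sparc* to *Mmp23*, *Ube2b* and *Clpp* (0.955 to 0.966). Among the members, the highest r were 0.75 for *Dspp* with *Sparc* and 0.72 for *Dspp* with *Dmp1*. Close behind were 0.71 for *Bglap* with *Sparc* and with *Bglap2*, and 0.69 for *Bglap2* with *Sparc*. Without 1 library these r fell as low as 0.49 to 0.63, depending on the pair. These values describe 8 libraries that share 2 genotypes and their depth, and carry no test. A search of so many genes over 8 libraries finds high r values by chance as well.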

How the data were processed

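Dental pulp RNA was sequenced in 4 Osterix-Cre and 4 Tgfbr2cko libraries, amplified from 1 ng by a low-input kit. Per the labels, the authors trimmed reads with fastp 0.21.0, aligned them with HISAT2 2.1.0 to GRCm38.p5 and counted them with featureCounts (Subread 2.0.1) against GENCODE M14. They kept genes that the CLEAR workflow calls quantifiable and applied voom, and deposited log2 CPM values with 0.5 reads added to each count. Strandedness is not given in the sources used here. All 97184 values returned whole reads (within 0.01). Genotypes were compared on all 12148 genes with limma 3.58.1 (R 4.3.3, two-sided, intensity trend), with Benjamini-Hochberg adjustment, and single values by two-sided exact permutation. The members, lists and ratios were chosen with earlier results of these data known. Named genes are the members, the called genes of each list (or the 2 of smallest p), and the 3 genes most like each member. *Sema4a*, *Tmem79*, *Pmf1*, *Sparcl1*, *Runx2*, *Sp7* and single marker genes were added after their values were seen. Separate animals are not stated for every library, so p-values measure the spread between libraries. Those of limma-trend also draw on the error typical of genes at a similar level. Intervals on shares cover counting error only, since amplified reads are not independent molecules. Identifiers were located in GENCODE M21. Alternatives were other scalings, weights, filters and thresholds, an enamel covariate, and leaving out libraries, which for genes other than the members was added after the data were seen. Figures were drawn with matplotlib 3.10.9. The summed level of the bone cell list and 1 gene of the lists are not reported here, though the gene stays in the fit and in the counts.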

Additional observations from a re-analysis of the deposited data

Results flagged for a closer look

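Among 44 groups of 4 libraries tested, 2 held a library far from the rest, where chance gives about 1 in 20. For *Bmp1*, control 49 had a log2 value of 8.48 and the other controls 8.15 to 8.19, a gap of 0.87 of the range. For *Smoc2*, control 49 had 6.57 and the other controls 5.60 to 5.64, a gap of 0.951 of the range. Control 49 also had the largest enamel share of the controls, 2.14%, and its part in these values was not tested.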

How the results depend on the processing

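Of 180 recomputed values of the members, their ratios, sums and counts, 149 kept their direction and side of the threshold and 15 changed sign. The other 16 were 4 lost calls of *Bglap*, 6 lower counts of called members and values of the *Bglap* over *Bglap2* (1) and *Sparc* over *Col1a1* (5) ratios past 0.05. *Dspp* and *Ibsp* kept theirs under all 16 alternatives: *Ibsp* lay between 0.77 and 1.55 (limma p at most 0.0240). *Bglap* had p under 0.05 in 7 of the 8 alternatives that left no library out, the other being library weights (-0.45), and in 5 of the 8 that left 1 out (-0.88 to -0.56). The number of called members was 1 with library weights or at 2-fold, 0 at an adjusted p, and 1 to 2 without 1 library. *Bglap2* changed sign with library weights (0.27), voom weights (0.000709) and libraries averaged where their titles share a number (0.0064), and ran from -0.19 to 0.20 without 1 library. *Sparc* was 0.084 with library weights, 0.30 after quantile normalization and -0.26 to 0.067 without 1 library. *Dmp1* ran from -0.90 to 0.089, *Dspp* over *Dmp1* from -0.56 to 0.040, *Bglap* over *Col1a1* from -0.020 to 0.30 and *Sparc* over *Col1a1* from 0.61 to 0.88 without 1 library. With those averages, *Bglap* over *Bglap2* was -0.72 and *Sparc* over *Col1a1* 0.77, both with p = 0.1, the smallest an exact permutation of 3 against 2 allows. The summed chromosome 5 genes gave 0.34 without *Dspp*. The causes were not tested. The *Bglap3* sum was not run, since that gene was not analysed here. No paired analysis was possible because the genotypes share fewer than 2 title numbers; a block on that number would rest on 1 control and 2 Tgfbr2cko libraries.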
